A study of Mus musculus with 2 samples.

Results

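Cycling C1q macrophages were tumour macrophages that carried transcripts of complement component C1q together with transcripts of cell division genes. They were chosen from unique molecular identifier (UMI) counts, in which each UMI stands for 1 captured RNA molecule. Barcodes with at least 200 genes and at most 10% mitochondrial UMIs were kept. A kept barcode was called a C1q macrophage when C1qa, C1qb and C1qc together reached 20 UMIs and the T cell genes Cd3d, Cd3e and Cd3g together did not exceed 1. It was called cycling when Mki67, Top2a, Nusap1 and Birc5 together reached 5 UMIs. The rule found 1392 cycling cells among 6284 C1q macrophages and 27362 kept barcodes. Of these, 282 came from the library named Arg and 1110 from the library named Control. C1q macrophages without a single UMI of the 4 cycle genes, called non-cycling here, numbered 1415 and 1615. Between them lay 529 and 1333 cells with 1 to 4 such UMIs.

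Macrophages of a tumour are mostly supplied by blood monocytes, but macrophages can also divide in place, and growth factors such as CSF1 support both survival and division. A dividing cell first loads and fires replication origins with the MCM helicase in S phase. It then builds a spindle and kinetochores under the cyclin B and CDK1 kinase, and the anaphase-promoting complex with its activator Cdc20 ends mitosis. C1q, the first component of the classical complement pathway, is made mainly by macrophages and marks a mature population of them in mouse and human tumours.

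The series holds 2 droplet single-cell libraries of CD45-enriched cells from subcutaneous CT26 tumours, a mouse colorectal carcinoma line. BALB/c mice aged 5 weeks ate a normal diet (Control) or an arginine-deficient diet of equal calories (Arg) for 1 week before inoculation, and tumours were taken on day 20. The label of the Arg library itself names no diet; its assignment to the arginine-deficient diet rests on the series' design text. The number of mice behind a library is not stated in the sources used here. With 1 library per diet, diet, mouse, tumour and preparation cannot be told apart, no test was run, and every interval below covers counting error only.

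The label was checked on genes outside the rule. Ccnb1, which encodes cyclin B1 and took no part in the rule, stood at 83.1 UMIs per 1000000 UMIs of the pooled cells (CPM, 95% Poisson interval 76.3 to 90.3) in cycling cells of the Arg library and 1.09 (0.655 to 1.70) in non-cycling cells. In the Control library it stood at 91.1 (87.5 to 94.9) and 2.94 (2.23 to 3.80). At least 1 Ccnb1 UMI was found in 59.6% and 64.1% of cycling cells and in 1.34% and 3.53% of non-cycling cells. Cdca3, a trigger of mitotic entry, stood at 129 against 2.46 CPM in Arg and at 123 against 6.08 CPM in Control. The macrophage receptor gene Csf1r stood at 138 and 155 CPM in cycling cells. The genes of the rule itself, given only as a description, were spread over most members: all 4 cycle genes were present in 168 of the 282 Arg cells and 718 of the 1110 Control cells, while 9 and 33 cells reached the limit through 1 gene alone. C1qa, also of the rule, was at 3158 against 3349 CPM in Arg and at 3818 against 4425 CPM in Control.

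Cycling cells were deep barcodes. Their median was 21158 UMIs in Arg and 20446.5 in Control, against 11414 and 11421 in non-cycling cells. A raw count limit favours deep cells, so shares were also taken after thinning every cell to 5000 UMIs. Scrublet called 8.87% and 8.65% of cycling cells doublets, against 4.10% and 1.98% of non-cycling ones. The rule made no use of the Scrublet calls. Of all kept barcodes, 42 occurred in both libraries; 1 of these was a C1q macrophage in both and 0 were cycling in both.

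A small set of the cycling barcodes also carried transcripts abundant in collagen-positive barcodes (Rhox5, Hmga2, Tm4sf1, Sparc, Col1a2 and Cald1, a panel chosen after these values were seen). At least 20 panel UMIs were found in 19 of 282 cycling cells in Arg (6.74%, 4.10 to 10.3) and in 101 of 1110 in Control (9.10%, 7.47 to 10.9). Among non-cycling cells the share was 0.636% and 1.11%. Those cycling barcodes had medians of 42114 and 46906 UMIs, 36.8% and 62.4% were Scrublet doublets, and their C1q genes summed to 3226 and 3329 CPM, against 7453 and 9866 CPM in cycling cells with 0 to 2 panel UMIs. A part of the results that moved with these barcodes is given with and without every cell above 2 panel UMIs. Of the gene ratios checked, 121 moved by more than counting error without those cells, 13 past the fold changed sign and 215 did neither. A value printed once may therefore also move.

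Around the limit of the rule the mitotic genes did not step up evenly. Cells with a cycle sum of 4 numbered 38 in Arg and 91 in Control, and had Ccnb2 (cyclin B2) at 56.5 and 60.3 CPM. Cells with a sum of 5 numbered 22 and 61, with Ccnb2 at 60.3 and 107 CPM, and the 13 and 49 cells with a sum of 6 had it at 132 and 63.0 CPM. Over the same sums of 4, 5 and 6, Ccnb1 went from 14.1 through 26.2 to 11.0 CPM in Arg and from 3.35 through 11.1 to 14.1 CPM in Control. Cells with a Cd3 sum of 2 or more that met the other limits, 40 and 120 in number, carried the T cell receptor gene Trac at 162 and 168 CPM, against 1.25 and 1.47 CPM in cycling cells with a Cd3 sum of 0.

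The share of C1q macrophages that cycled was 12.7% in the Arg library (282 of 2226, exact Clopper-Pearson 95% interval 11.3 to 14.1). It was 27.4% in the Control library (1110 of 4058, 26.0 to 28.8). The Arg share was 0.463 times that of Control (0.411 to 0.522), and the intervals of the 2 shares did not overlap. After thinning to 5000 UMIs, with 2 or more cycle UMIs as the limit and 142 and 204 shallower cells left out, the shares were 13.1% (11.7 to 14.7) and 28.8% (27.4 to 30.3). Every bin of the cycle sum from 1 upward held a larger share of the Control macrophages, and the bin of 20 to 49 UMIs held 4.0% in Arg and 11.3% in Control.

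**Figure D1:**
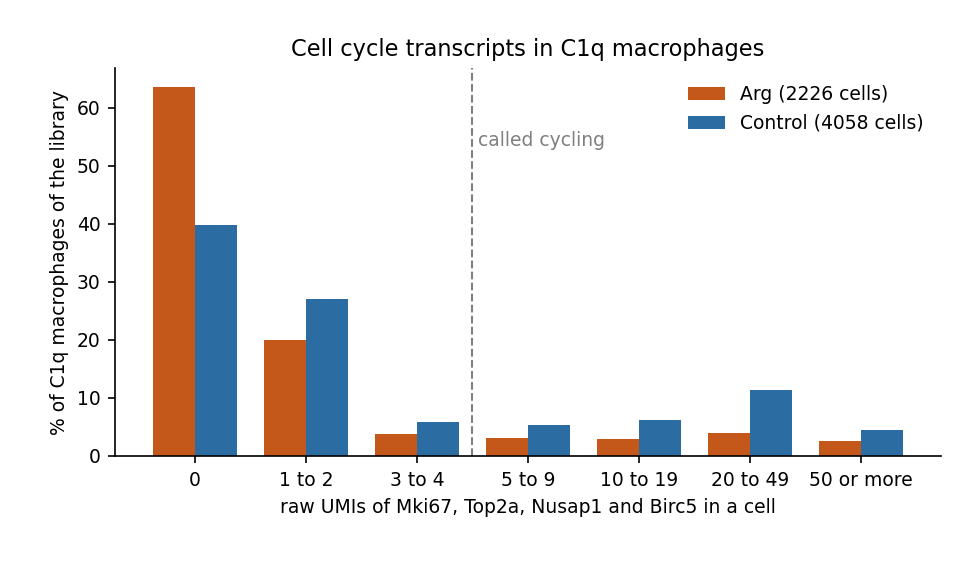
Share of the C1q macrophages of each library (bars, y axis in %) by the raw UMI sum of the 4 cycle genes in a cell (x axis), with the limit of the rule as a dashed line. Of Arg macrophages 63.6% had no cycle UMI, against 39.8% in Control, and each bin from 1 UMI upward was higher in Control.

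C1q macrophages of Control also held more C1q per cell, with a median C1q sum of 138 UMIs against 76.5 in Arg. They were also deeper, with a median of 14446.5 UMIs against 13053.5. Per 10000 UMIs of a cell, the median C1q sum was 97.9 in Control and 69.7 in Arg. The lower share in Arg was present at every C1q level. Among cells with 40 to 79 thinned C1q UMIs it was 14.2% in Arg and 29.7% in Control, and among cells with 10 to 19 it was 8.86% and 27.2%. Only in the bin of 80 or more did the intervals overlap (14.3%, 8.95 to 21.2, against 20.8%, 16.8 to 25.3). Weighted to a common mix of the bins, the shares were 13.4% and 29.0%.

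**Figure D2:**
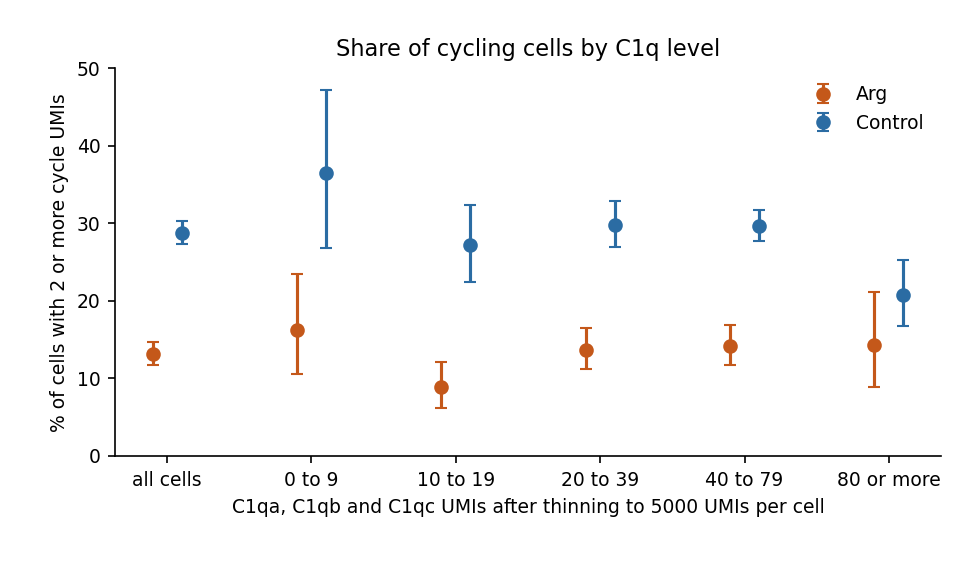
Percentage of C1q macrophages with 2 or more cycle UMIs after thinning to 5000 UMIs (y axis), for all cells and by thinned C1q UMIs (x axis); points are shares and bars exact 95% binomial intervals. Arg points lie between 8.86% and 16.3%, and Control points between 20.8% and 36.6%.

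Barcodes of other kinds put these shares in context. T cells, gated as a Cd3 sum of 3 or more, had 18.9% (17.2 to 20.8) of thinned cells at 2 or more cycle UMIs in Arg and 33.1% (31.0 to 35.2) in Control, a ratio of 0.572 (0.510 to 0.640). A lower share in the Arg library was thus also present in T cells. Collagen-positive barcodes showed 35.0% and 37.5%, a ratio of 0.934 (0.738 to 1.18). Neutrophils do not divide in tissue and were used for the level that free RNA gives. Thinned to 2000 UMIs, 3 of 131 Arg neutrophils (2.29%, 0.475 to 6.55) and 3 of 267 Control neutrophils (1.12%, 0.232 to 3.25) reached 2 cycle UMIs. At the same depth 7.92% and 18.2% of C1q macrophages did. The macrophages had median raw depths of 13053.5 and 14446.5 UMIs, against 2477.5 and 2381 in the neutrophils. Few neutrophils reached 5000 UMIs. At that depth 2 of 30 in Arg (6.67%, 0.818 to 22.1) and 2 of 62 in Control (3.23%, 0.393 to 11.2) had 2 cycle UMIs. The Arg interval includes the 13.1% of Arg C1q macrophages at 5000 UMIs.

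Cycling cells occurred across macrophage states. C1q macrophages were split, after thinning, by whether a state gene was detected. Cells with Cx3cr1, the fractalkine receptor, had higher shares of cycling cells than any other cells chosen by detection of a state gene in both libraries, 22.3% (16.4 to 29.2) against 12.3% without it in Arg and 36.0% against 25.5% in Control. Cells with the interferon-inducible chemokine gene Cxcl9 followed, at 15.3% against 9.35% and 32.6% against 25.3%. Cells with Nos2, the inducible nitric oxide synthase, had low shares, 7.47% (5.13 to 10.4) against 14.6% and 18.8% against 29.4%. Cells with Cd163, a haemoglobin scavenger receptor, stood at 13.3% against 30.1% in Control and at 10.5% against 13.4% in Arg, where the intervals overlapped. Cells with the fibronectin gene Fn1 had the same share as cells without it, 13.1% and 13.2% in Arg and 28.8% and 28.8% in Control. In all 32 subsets made from 16 state genes the share was lower in Arg, with ratios from 0.301 to 0.792. The subsets are 16 splits of the same cells, so they are not independent of each other. Detection of a gene in a cell depends on its level, so cells without a UMI may still express it.

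Early and mitotic transcripts were both found among the cells that the rule chose. A panel of 14 early genes (MCM helicase, cyclin E and origin factors) and one of 14 mitotic genes, neither holding a gene of the rule, were summed after thinning to 10000 UMIs, which left out 17 and 75 shallower cells. At least 5 UMIs of the S panel alone were found in 18.1% of cycling cells in Arg (48 of 265) and 15.8% in Control (164 of 1035). At least 5 of the M panel alone were found in 46.4% and 45.1%, of both in 30.9% and 36.7%, and of neither in 4.53% and 2.32%. The intervals of the 2 libraries overlapped for each class. The 4 cycle genes of the rule were lower with the S panel alone than with the M panel alone. Birc5 stood at 139 against 523 CPM in Arg and 179 against 595 in Control. Among cells with a cycle sum of 1 to 4, 70 of 409 in Arg and 308 of 1037 in Control had the S panel alone. The split between classes is therefore partly set by the rule. The panels ran against each other across cells, with Spearman correlations of -0.52 and -0.58; the cells of 1 library share that library, so this is a description.

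Genes outside both panels ordered the same way. Pcna, the sliding clamp of DNA polymerase, went from 587 CPM in cells with the S panel alone through 442 in cells with both to 147 CPM in cells with the M panel alone in Arg. In Control it went from 483 through 466 to 125 CPM. Cenpf, a kinetochore protein, went the other way, from 12.4 through 125 to 202 CPM in Arg and from 24 through 138 to 239 CPM in Control. The linker histone gene Hist1h1b was highest where both panels were present, at 383 CPM in Arg and 523 in Control, against 128 and 172 with S alone and 187 and 227 with M alone.

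**Figure D3:**
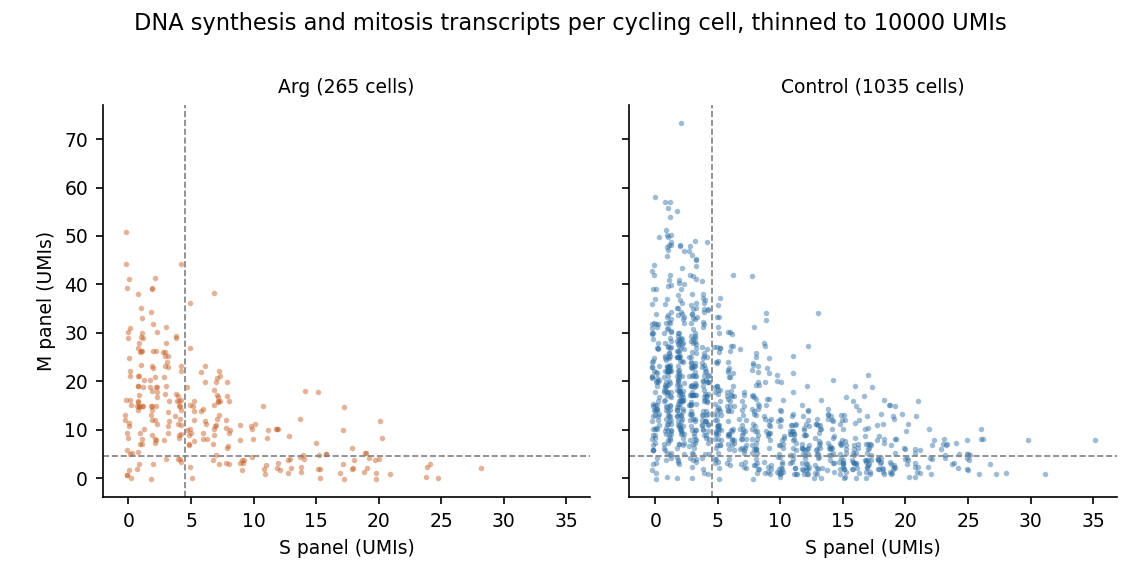
Each point is 1 cycling cell, thinned to 10000 UMIs, by its UMIs of the S panel (x axis) and of the M panel (y axis), with a small random offset for display; dashed lines mark the limit of 5 UMIs. Cells high in the M panel alone made up 46.4% in Arg and 45.1% in Control, and cells high in both panels 30.9% and 36.7%.

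Promoter motifs were counted for the mitotic and for the replication genes. Stretches of 120 bases upstream of the RefSeq start are shown for the mitotic genes Ccnb1, Ccnb2 and Cdc20, for Top2a and Mki67 of the rule and for the helicase gene Mcm6, all on the minus strand of GRCm38.p6 and written 5′ to 3′ as RefSeq gives them. Capitals mark 4 motifs searched on both strands, TTTGAA (the core of the cell cycle homology region), CCAAT (the box bound by NF-Y), and TTCCCGC and TTGGCGC (2 forms of the E2F site). The last base shown lies 1 base before the start for Ccnb2, Top2a, Mki67 and Mcm6, 10 bases before it for Cdc20 and 85 bases before it for Ccnb1. In the Ccnb1 stretch a CCAAT overlaps TTGGCGC on the other strand. The stretches are Ccnb1 at chr13:100786571-100786690, Ccnb2 at chr9:70421555-70421674, Cdc20 at chr4:118437353-118437472, Top2a at chr11:99024190-99024309, Mki67 at chr7:135716380-135716499 and Mcm6 at chr1:128359706-128359825.
Ccnb1: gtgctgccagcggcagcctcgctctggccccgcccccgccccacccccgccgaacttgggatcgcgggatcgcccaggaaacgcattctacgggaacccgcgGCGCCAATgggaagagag
Ccnb2: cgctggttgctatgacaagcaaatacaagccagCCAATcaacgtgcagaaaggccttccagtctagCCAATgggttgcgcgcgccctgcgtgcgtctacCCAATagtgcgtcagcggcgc
Cdc20: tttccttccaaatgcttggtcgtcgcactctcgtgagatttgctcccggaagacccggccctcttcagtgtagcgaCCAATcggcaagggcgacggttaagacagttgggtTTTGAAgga
Top2a: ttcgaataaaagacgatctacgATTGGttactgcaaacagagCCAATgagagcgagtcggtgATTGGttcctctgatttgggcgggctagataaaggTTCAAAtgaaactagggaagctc
Mki67: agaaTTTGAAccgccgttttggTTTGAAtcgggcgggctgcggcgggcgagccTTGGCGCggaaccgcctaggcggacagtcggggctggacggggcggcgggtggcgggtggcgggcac
Mcm6: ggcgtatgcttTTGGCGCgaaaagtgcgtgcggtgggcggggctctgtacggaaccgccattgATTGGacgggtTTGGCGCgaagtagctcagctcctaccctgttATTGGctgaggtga

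Ccnb2 held 3 CCAAT boxes in its stretch, and Top2a held 3 CCAAT boxes beside 1 TTTGAA. Over windows from 250 bases before to 50 after the start, 82 of 103 genes of the mitotic lists had a RefSeq entry. TTTGAA was in 59.8% of them, against 20.2% of the windows of all 27025 RefSeq genes and 14.8% of 6881 genes expressed in these cells. CCAAT was in 70.7%, against 41.1% and 43.0%. Of the licensing and replication genes 32 of 40 had an entry. CCAAT was in 62.5% of these as well, and TTTGAA in 15.6%. TTCCCGC was in 50% of them and in 7.32% of the mitotic genes, against 5.29% and 10.4%, and TTGGCGC in 28.1% and 9.76%, against 2.85% and 5.60%. A match is a description of the letters in the window and not of a bound factor.

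Levels of cycling and non-cycling cells were then compared within each library, on summed counts and as the log2 ratio of CPM plus 5. A gene was counted past the fold when that ratio reached 1.5-fold, and a gene was measured when it had at least 10 CPM in either group. Of 8276 genes measured in Arg, 970 were higher (11.7%) and 563 lower (6.8%) in cycling cells; of 8327 in Control, 1031 were higher (12.4%) and 498 lower (5.98%). The rule chose the cells by this contrast, so the values describe what the cells held. The libraries shared 802 higher genes, 82.7% of those in Arg and 77.8% of those in Control, and 308 lower ones, 54.7% and 61.8%. The median over all measured genes was 0.01 in Arg and 0.07 in Control. With cells above 2 collagen-panel UMIs left out of both sets, 10.2% of measured genes were higher and 5.88% lower in Arg, and 10.1% and 5.54% in Control.

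Replication genes were higher throughout. All 39 measured genes of licensing and replication, of 40 listed, were past the fold in both libraries, with a median log2 ratio of 1.59 in Arg and 1.49 in Control. Mcm6, a helicase subunit, stood at 57.3 against 9.0 CPM in Arg and 69.6 against 20.5 in Control. Clspn, which carries the replication checkpoint signal, stood at 43.3 against 1.15 and at 55.6 against 3.55 CPM. Among genes of nucleotide synthesis 15 of 19 measured in Arg and 18 of 20 in Control were past the fold. Rrm2, the regulated subunit of ribonucleotide reductase, stood at 118 against 2.46 CPM in Arg and 129 against 6.90 in Control. The purine and pyrimidine synthesis genes Cad, Umps, Ppat and Gart showed smaller ratios, between 0.50 and 0.77. Of the histone genes 18 of 20 measured, of 26 listed, were higher in each library. The list had medians of 2.46 and 2.56. Hist1h1b led them, at 233 against 1.83 CPM in Arg and 327 against 5.58 in Control. Most replication-dependent histone RNAs have no poly(A) tail, so a 3′ assay captures a part of them, and several belong to near-identical families.

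Mitotic genes had the highest list medians beside those of histones. All 32 measured G2/M regulators were past the fold in both libraries, with medians of 2.81 and 2.68. At matched depth these medians were 2.63 and 2.65. For this, equal numbers of cycling and non-cycling cells were drawn from each range of depth, 240 of each kind in Arg and 658 in Control. Some cycling cells were thereby left out. The cycling cells drawn had median depths of 19739.5 UMIs in Arg and 16244.5 in Control. Ube2c, the ubiquitin-conjugating enzyme of the anaphase-promoting complex, stood at 439 against 7.79 CPM in Arg and 471 against 20.0 in Control. Cdk1 stood at 218 against 11.9 CPM in Arg and 250.0 against 19.2 in Control. All 28 and 27 measured kinetochore and passenger complex genes were higher, with medians of 2.70 and 2.55, and 36 of 37 spindle and cytokinesis genes were, with medians of 2.82 and 2.77. Among the latter, the microtubule regulator Stmn1 stood at 417 against 18.9 CPM in Arg and 341 against 32.1 in Control, and the midzone bundler Prc1 at 131 against 2.35 and 159 against 4.72 CPM. Condensin, cohesin and lamina genes had medians of 1.83 and 1.93. There the condensin subunit gene Smc2 was at 191 against 16.7 CPM in Arg, while the cohesin subunit gene Stag2 was at 56.5 against 60.8 CPM in Arg and 55.2 against 48.8 CPM in Control. Genes of the DNA damage response were past the fold in 15 of 19 measured in Arg and 20 of 24 in Control. In all, the 260 listed cell cycle genes took 2.62% and 2.83% of the UMIs of cycling cells, against 0.563% and 0.631% of those of non-cycling cells.

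**Figure D4:**
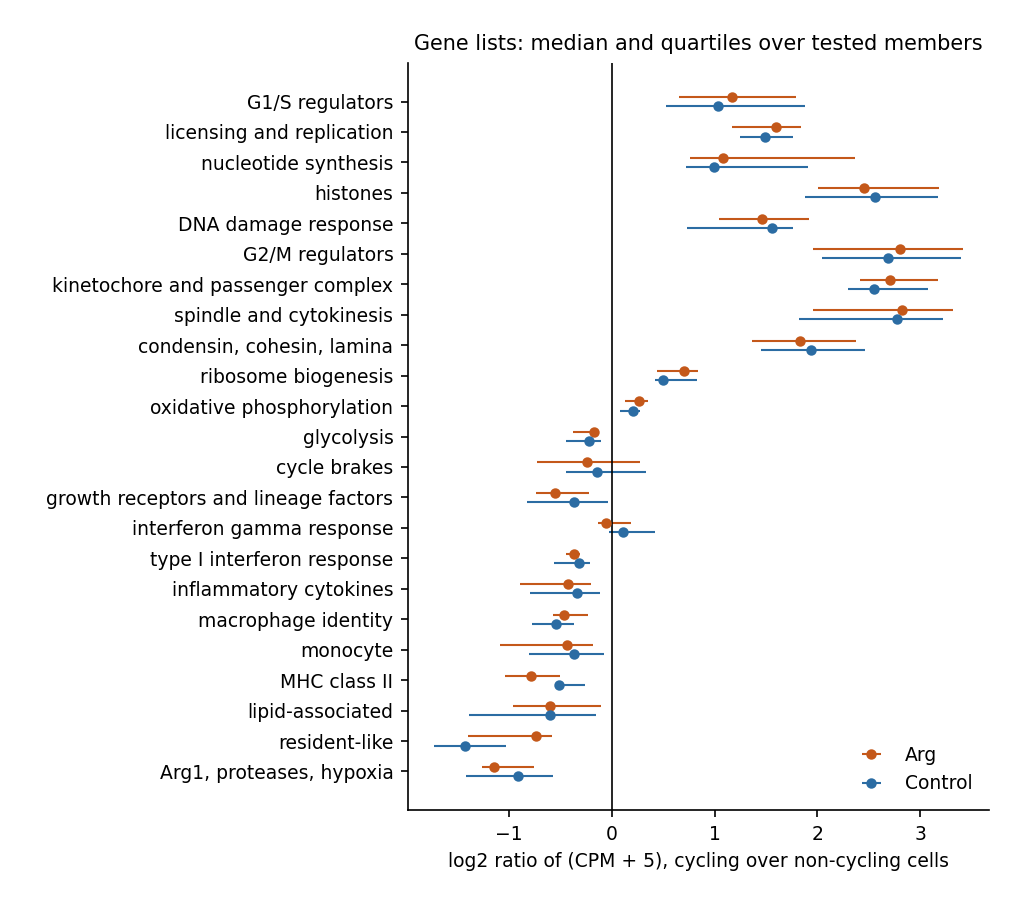
Median log2 ratio of CPM plus 5, cycling over non-cycling cells (x axis), for each gene list (y axis) in the Arg and Control libraries; points are medians over measured members and bars run from the lower to the upper quartile of genes. The G2/M list lies at 2.81 and 2.68, and the list of Arg1, proteases and hypoxia genes at -1.15 and -0.92.

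The G1 machinery was raised unevenly. Cks1b, a subunit of cyclin-dependent kinases, stood at 292 against 22.9 CPM in Arg and 333 against 32.5 in Control, and the repressor gene E2f8 at 43.2 against 4.70 and 53 against 4.82 CPM. Of the D cyclins, Ccnd1 had log2 ratios of 0.61 in Arg (0.23 at matched depth) and 0.32 in Control (0.01), and Ccnd2 of -0.12 and -0.13. Among genes known to brake the cycle the list was split, with medians of -0.25 and -0.15. The CDK4 and CDK6 inhibitor genes Cdkn2c and Cdkn2d were higher in cycling cells, Cdkn2c at 87.1 against 8.94 CPM in Arg and 101 against 16.3 in Control, and Cdkn2d at 114 against 21.7 and 121 against 22.4 CPM. Cdkn2c followed the cycle sum in Control, from 16.3 CPM at a sum of 0 through 32.7 at 5 to 9 to 140 CPM at 50 or more. Cdkn1a, which encodes p21, stood at 378 against 546 CPM in Arg and 387 against 438 in Control. The antiproliferative gene Btg2 was lower, at 268 against 577 CPM in Arg and 261 against 503 in Control, and so were the stress genes Gadd45b, at 78.9 against 163 and 53.5 against 111 CPM, and Klf4, at 124 against 263 and 195 against 357 CPM.

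Growth factor receptors and lineage factors were mostly lower, with 8 and 7 of 18 measured genes lower past the fold; in Arg it was 4 of 17 at matched depth. The gene of the CSF1 receptor, Csf1r, stood at 138 against 208 CPM in Arg and 155 against 214 in Control. Its log2 ratios were -0.57 and -0.45, and -0.22 and -0.14 at matched depth. Maf, the gene of a factor that helps to hold macrophages in their mature state, was lower, at 394 against 655 CPM in Arg and 341 against 596 in Control. At matched depth the ratio of Maf went from -0.73 to -0.14 in Arg and from -0.80 to -0.43 in Control. Myc showed ratios of 0.13 and 0.15. Of the ribosome biogenesis genes all 15 measured, of 16 listed, were above 0 in both libraries, with 9 and 7 past the fold and medians of 0.70 and 0.50. At matched depth 4 were past the fold in each library, and the medians were 0.34 and 0.36. Dkc1, part of the complex that modifies ribosomal RNA, stood at 36.9 against 13.5 and 47.4 against 19.4 CPM. Oxidative phosphorylation genes had medians of 0.27 and 0.21, with 23 of 25 above 0 in each library and Cycs, cytochrome c, past the fold (0.80 and 0.65, and 0.48 and 0.52 at matched depth). All 17 measured glycolysis genes were below 0 in both libraries, with medians of -0.17 and -0.23. Of the targets of ATF4, a transcription factor of amino acid stress, 7 of 15 and 6 of 14 measured were past the fold, among them the serine synthesis gene Psat1 (52.5 against 18.8 and 55.0 against 16.7 CPM). The median of that list was 0.34 and 0.29. Without cells above 2 collagen-panel UMIs it was -0.04 and -0.02, with 3 of 13 past the fold in each library.

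Mature macrophage genes were mostly lower in cycling cells, and several of these differences were smaller between cells of matched depth. Of 25 macrophage identity genes, 23 were below 0 in Arg and 21 in Control, with 6 and 10 past the fold and medians of -0.46 and -0.54. Apoe, a lipid carrier, had the lowest ratio of the list. It stood at 1550.3 CPM (1521 to 1580.4) against 5718 (5683 to 5754) in Arg and at 1834 (1817 to 1851) against 5760.2 (5727 to 5794) in Control, log2 ratios of -1.88 and -1.65. At matched depth these ratios of Apoe were -0.87 and -0.92, and the medians of the list -0.22 and -0.40. Apoe declined with the cycle sum, in Arg from 5718 CPM at 0 through 4594 at 1 to 2 and 2142 at 5 to 9 to 1093 CPM at 50 or more. In Control the same bins held 5760.2, 4207, 2297 and 1369.9 CPM. The scavenger receptor gene Msr1 differed by 0.01 and 0.02, and Fcgr1, the high-affinity Fc receptor, by -0.09 and 0.00.

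Genes associated with resident macrophages showed larger differences. Of 13 measured in Arg 10 were lower past the fold, and of 14 in Control 12, with medians of -0.74 and -1.43, and of -0.45 and -1.11 at matched depth, where 4 of 13 and 13 of 14 were lower past the fold. Clec10a, a galactose-type lectin, stood at 27.9 against 149 CPM in Arg and 32.6 against 150.4 in Control, with ratios of -2.22 and -2.05, and of -0.82 and -1.02 at matched depth. Selenop, a selenium carrier, stood at 306 against 813 and 275 against 891 CPM, F13a1, a coagulation factor, at 117 against 344 and 154 against 528 CPM, and the eosinophil chemokine gene Ccl24 at 28.8 against 84.3 and 38.6 against 161 CPM. At matched depth their Arg ratios were -0.69, -0.90 and -0.59. Lyve1, a hyaluronan receptor, was at 22.8 against 14.6 CPM in Arg and 48.9 against 109 in Control, with ratios of 0.51 and -1.09, and of -0.01 and -1.45 at matched depth.

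Genes of the Arg1, protease and hypoxia list were lower past the fold in 13 of 15 measured in Arg and 10 of 14 in Control. Arg1, arginase 1, stood at 450.3 against 1006 CPM in Arg and 179 against 521 in Control. Mmp13, a collagenase, stood at 247 against 685 and 63.9 against 240 CPM, and Hilpda, a hypoxia-induced lipid droplet gene, at 147 against 420 and 101 against 240 CPM. Spp1, osteopontin, was the 1 member above 0 in each library, with ratios of 0.38 and 0.55. These were 0.10 and 0.11 without cells above 2 collagen-panel UMIs, and turned to -0.69 and -0.57 at matched depth. All 9 measured genes of MHC class II presentation were below 0 in both libraries, 6 of them past the fold in Arg and 1 in Control. H2-Aa stood at 2027 against 4491 CPM in Arg and 1198 against 1831 in Control. At matched depth the Control ratio of H2-Aa went from -0.61 to -0.18 and the Control median of the list from -0.52 to -0.18. The interferon gamma response list lay near 0 as a whole, with medians of -0.06 and 0.11. Within it the chemokine gene Cxcl10 was higher in cycling cells, at 943 against 504 CPM in Arg (0.90, and 0.57 at matched depth) and 559 against 314 in Control, and Nos2 was lower, at 58.6 against 143 and 7.60 against 33.0 CPM. Inflammatory genes had medians of -0.43 and -0.34, with Il1b at 588 against 1219 and 692 against 1052 CPM (Control ratio -0.60, and -0.40 at matched depth). Among monocyte genes Ly6c2 was lower (81.9 against 199 and 30.9 against 76.8 CPM), and Cx3cr1 was higher (34.5 against 22.5 and 143 against 103 CPM), with ratios of 0.52 and 0.45, and of 1.48 and 0.76 at matched depth.

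Outside the cycle lists, the genes with the largest ratios held at least 50 CPM in the higher group. Pclaf, which binds the sliding clamp PCNA, stood at 435 against 6.59 CPM in Arg and 431 against 15.9 in Control. Diaph3, a formin of the actin skeleton, stood at 84.1 against 3.09 and 91.6 against 4.82 CPM, the kinase gene Pbk at 57.7 against 0.974 and 61.2 against 2.13 CPM, and the histone chaperone gene Asf1b at 69.7 against 4.47 and 74.9 against 3.70 CPM. Atad2, Slfn9 and Ccdc34 had ratios between 1.96 and 2.34. On the lower side, beside the genes above, Slfn5 had ratios of -1.75 and -1.54, Hal (histidine ammonia-lyase) of -1.52 and -2.28, Trf (transferrin) of -1.59 and -1.37, Pdgfc of -1.31 and -1.89, and Zdhhc14 of -1.27 and -1.35. At matched depth the Arg ratios of Pdgfc, Hal and Zdhhc14 were -0.42, -0.75 and -0.59, and the Control ratio of Pdgfc was -1.13. Tm4sf1, Rhox5 and Hmga2 were named by the same rule, with ratios of 3.37 and 2.19, 2.40 and 1.96, and 1.92 and 2.03. They belong to the collagen panel: without cells above 2 panel UMIs the ratios were -0.20 and -0.35, -0.13 and -0.21, and 0.24 and -0.20.

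Markers of other lineages were checked in the cycling cells. T cell markers summed to 76.9 CPM in Arg and 36.2 in Control, against 3728 and 4369.9 CPM in gated T cells, with 0 of the 12 markers at 0. NK markers summed to 331 and 133 CPM, against 209 and 117 in non-cycling cells, and 1 of 11 was at 0 in each library. In Arg the granzyme genes Gzma and Gzmb stood at 108 and 67.8 CPM. Neutrophil markers summed to 75 and 82.6 CPM, against 20379 and 35602 CPM in gated neutrophils. Fibroblast markers summed to 60.6 and 142 CPM, against 2653 and 2463 CPM in collagen-positive barcodes. Keratin and other epithelial tumour markers summed to 7.95 and 6.14 CPM. In barcodes gated by at least 5 UMIs of Krt8 and Krt18 they reached only 231.5 CPM in Arg (7 barcodes) and 200 CPM in Control (48 barcodes). B cell and plasma cell markers reached 9.45 and 11.8 CPM, mast cell markers 15.1 and 6.14 CPM, endothelial markers 48.7 and 28.2 CPM, and haemoglobin genes with Alas2 0.150 and 1.85 CPM. Sums over the conventional dendritic cell lists were 283 and 316 CPM (type 1) and 170 and 78.3 CPM (type 2 and mature), and that over the plasmacytoid list 838 and 842 CPM; these 3 lists hold genes that macrophages also express.

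Cycling cells of the 2 libraries were then compared with each other. Of 8271 genes measured in cycling cells, 260 were higher in Arg (3.14%) and 160 lower (1.93%). In non-cycling cells 371 of 7835 were higher (4.74%) and 189 lower (2.41%). With cells above 2 collagen-panel UMIs left out, 4.04% of genes were higher and 1.33% lower in cycling cells of Arg. Both comparisons use the same 2 libraries, so values are given side by side. The median of the G2/M list was -0.12 in cycling cells, of licensing and replication -0.17, of nucleotide synthesis -0.19 and of histones -0.22, and of 32 measured G2/M regulators and 39 licensing and replication genes 0 were past the fold. Ccnb1 differed by -0.13 and Cdc20 by -0.44. Without cells above 2 collagen-panel UMIs Cdc20 stood at 61.4 CPM in Arg and 99.3 in Control, a ratio of -0.65 and so past the fold, as it was with other-lineage UMIs limited to 2 (-0.59). Cells of both libraries had to reach the same minimum of 5 cycle UMIs, so like levels of cycle genes among them are partly set by the rule. Above that minimum the sums could differ, and their medians were 20 UMIs in Arg and 25 in Control.

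MHC class II genes were higher in the cycling cells of the Arg library. All 9 measured were above 0, 6 past the fold, with a median of 0.61, and a median of 0.99 in non-cycling cells. Without cells above 2 collagen-panel UMIs 3 of the 9 were past the fold, with a median of 0.52. H2-Aa stood at 2027 CPM in Arg and 1198 in Control. All 21 measured interferon gamma response genes were above 0 in cycling cells, 13 past the fold, with a median of 0.61 and a median of 0.80 in non-cycling cells; without those collagen-panel cells 8 were, with a median of 0.45. Cxcl9 stood at 958 and 576 CPM, Socs1, a feedback inhibitor of cytokine signalling, at 139 and 60.9 CPM, and Cd274, which encodes PD-L1, at 351 and 160.3 CPM. Of the type I interferon list 0 genes were past the fold, with a median of 0.18. The Arg1, protease and hypoxia list had 7 of 14 measured genes past the fold, with a median of 0.56, and the lipid-associated list 8 of 17, with a median of 0.57 in cycling and 0.15 in non-cycling cells. Mmp12, macrophage elastase, stood at 956 and 261 CPM, and Fabp5, a fatty acid carrier, at 943 and 290 CPM.

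Of 20 genes of arginine and polyamine use, 10 lay above 0 and 10 below. Arg1 stood at 450.3 CPM in cycling cells of Arg and 179 of Control (log2 ratio 1.30), Nos2 at 58.6 and 7.60 CPM (2.34), and the argininosuccinate synthase gene Ass1, which rebuilds arginine from citrulline, at 70.8 and 31.7 CPM (1.05). The arginine transporter gene Slc7a2 stood at 46.0 and 7.99 CPM (1.97), while Slc7a1, another arginine transporter, stood at 33.3 and 42.2 CPM (-0.30). Without cells above 2 collagen-panel UMIs Slc7a1 stood at 29.6 CPM in Arg and 29.8 in Control (-0.008). Slc7a1 was higher in cycling than in non-cycling cells of both libraries, at 33.3 against 19.7 CPM in Arg (0.64, and 0.31 at matched depth) and 42.2 against 15.4 CPM in Control, whereas Slc7a2 was lower, at 46.0 against 104 and 7.99 against 15 CPM. Without cells above 2 collagen-panel UMIs the ratios of Slc7a1, cycling against non-cycling, were 0.56 in Arg and 0.82 in Control. The polyamine synthesis genes Odc1 and Srm had ratios between the libraries of -0.24 and -0.58, and of -0.07 and -0.79 without those collagen-panel cells. The list had a median of 0.01, with 5 past the fold and each of those higher in Arg. The ATF4 target list had a median of -0.03, with the cystine transporter gene Slc7a11 its 1 member past the fold (34.5 and 11.2 CPM).

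**Figure D5:**
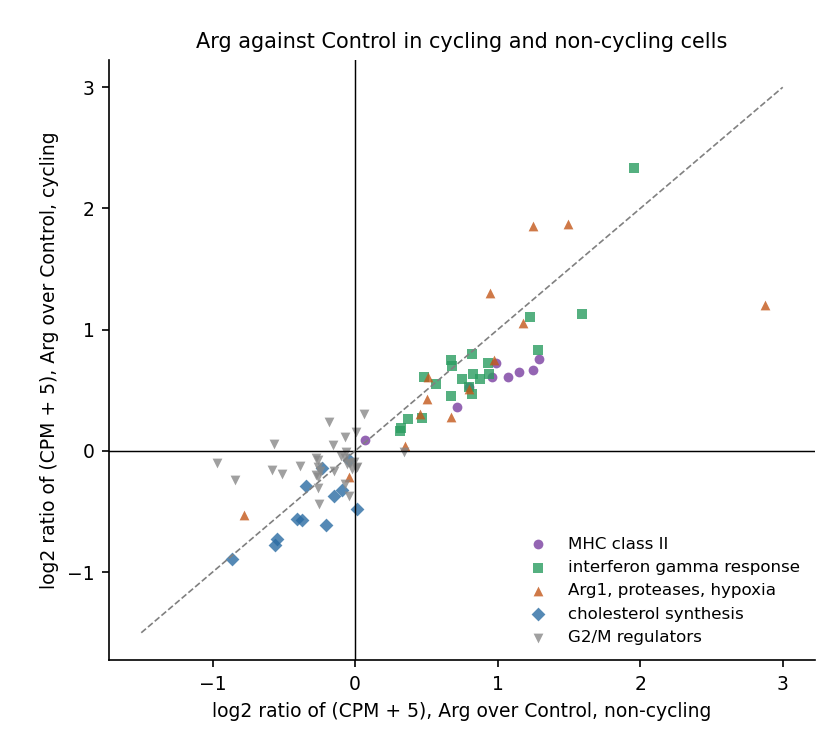
Log2 ratio of CPM plus 5, Arg over Control, of measured genes of 5 lists in non-cycling cells (x axis) and cycling cells (y axis); each point is 1 gene and the dashed line marks equal ratios. MHC class II genes lie at or above 0.09 in cycling cells, cholesterol synthesis genes at or below -0.08, and G2/M regulators between -0.44 and 0.31.

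Cholesterol synthesis genes were lower in the cycling cells of Arg. All 12 measured, of 17 listed, were below 0, with 4 past the fold and a median of -0.52, and -0.30 in non-cycling cells. Fdps, which makes farnesyl pyrophosphate, stood at 38.2 and 75.3 CPM. Without cells above 2 collagen-panel UMIs the median of the list was -0.34, and with other-lineage UMIs limited to 2 it was -0.25, with 2 past the fold. Ribosome biogenesis genes had a median of -0.21.

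Of the genes at the extremes in cycling cells, lower in Arg was the chemokine gene Cxcl14, at 16.8 CPM in Arg and 114 in Control, with ratios of -2.45 in cycling and -2.59 in non-cycling cells. Cx3cr1 stood at 34.5 and 143 CPM (-1.91 and -1.98), and Klf2, a transcription factor of quiescence, at 243 and 847 CPM (-1.78 and -1.85). The heat shock genes Hspa1a and Hspa1b, near-identical copies between which reads can be split, had ratios of -1.93 and -1.72 in cycling cells and -1.68 and -1.40 in non-cycling ones; tissue dissociation is known to induce them, and its part was not tested. Pou2f2 (-1.29), Ighm (-1.25) and Ckb (-1.06) were also named, as was the chaperone gene Hsph1, at -1.33 and at -0.88 without cells above 2 collagen-panel UMIs. Zfpm2, Ghr and Cald1 had ratios of -1.63, -1.26 and -1.09, and of -0.61, -0.23 and -0.26 without those cells.

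Higher in Arg were Pdcd1lg2, which encodes PD-L2, at 61.8 and 7.56 CPM (2.41 in cycling and 2.89 in non-cycling cells), and Ifitm1 at 249 and 56.5 CPM (2.04 and 2.41). Malt1, a signalling protease, stood at 128 and 30.0 CPM (1.92 and 2.06), the chemokine gene Ccl5 at 197 and 48.3 CPM (1.92 and 2.49), and the receptor gene Il7r at 85.5 and 19 CPM (1.91 and 1.46). Mmp13 (1.87 and 1.49), the lectin gene Mgl2 (1.77 and 1.78), Ly6c1 (1.63 and 0.96) and Pdpn (podoplanin, 1.63 and 1.23) completed the set, beside Nos2, Mmp12 and Fabp5 above. Ccl5 is also made by T and NK cells, whose markers were at 76.9 and 331 CPM in cycling cells of Arg and at 36.2 and 133 CPM in Control; their part in its ratio was not tested.

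The step from non-cycling to cycling cells was not the same in both libraries for every gene. Mmp9, a gelatinase, had a ratio of -2.22 in Arg, from 74.8 to 12.1 CPM, and of -0.55 in Control, from 5.88 to 2.44 CPM. F10 (-1.59 and -0.36) and Rnase2a (-1.72 and -0.62) showed the same order, and all 3 stood below 8 CPM in both groups of Control, under the minimum for a measured gene. At matched depth the Arg ratios of Mmp9 and Rnase2a were -1.60 and -0.83. On the other side, Sparc and Col1a2 had ratios of 1.83 and 1.58 in Arg and of -0.30 and -0.27 in Control. Col1a1 and Col3a1 had ratios of -2.08 and -1.85 in Control and were below 10 CPM in both groups of Arg. The haemoglobin gene Hbb-bs, which can share reads with its near-identical copy Hbb-bt, had 0 UMIs in cycling and 2 in non-cycling cells of Arg, so no fold is given there. In Control it was at 0.827 against 79.4 CPM (-3.86, and 0.11 at matched depth or -0.03 without cells holding more than 2 UMIs of markers of other lineages). Without cells above 2 collagen-panel UMIs the Control ratio of Col1a1 was -0.30, and the ratios of Sparc were -0.18 and -0.25.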

How the data were processed

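UMI counts per gene and barcode were used as the authors deposited them for 2 libraries, Arg and Control, with 32285 genes each. The matrices came from Cell Ranger 7.0.1 per the file headers. The version in the submitters' processing notes is 2.2.2, with GRCm38 as the genome; this difference was not resolved. Counting of intronic reads is not stated in the sources used here. The libraries held 155927693 and 191505551 UMIs; 13875 and 13487 barcodes were kept.

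Counts of the chosen cells were summed per library and scaled to CPM. Genes needed 10 CPM in either group, and ratios are log2 of CPM plus 5. No test was possible with 1 library per group, so sizes past 1.5-fold are described. Poisson and Clopper-Pearson intervals are at 95%. Thinning for the shares used seed 1, and the phase panels and the depth-matched draw used other fixed seeds. Doublets were scored per library with Scrublet in scanpy 1.11.5, at an expected 8%. Python 3.11.15, numpy 2.4.6, scipy 1.17.1, pandas 2.3.3 and, for TMM factors, edgeR 4.0.16 in R 4.3.3 were used. The code was tested on simulated data.

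Members, lists, panels and state genes were chosen with earlier results of these data known. Genes outside lists were named by rule, at 50 CPM or more in the higher group: the 12 with the highest and the 12 with the lowest ratio outside the cycle lists, by the library with the smaller size; the 12 highest and lowest between libraries in cycling cells; and the 5 highest and lowest in the difference between libraries of the cycling ratio. Predicted genes named Gm or Rik and mitochondrial genes were left out of the naming, and a few genes that the rules gave are not reported here. From lists, 2 to 4 members of high level or large difference were named. Trac, Ccnb2, Cd163, Cxcl9, Fn1, Msr1, Fcgr1, Lyve1, Stag2, Gzma and Gzmb were chosen after their values were seen. Alternatives were other limits of the rule, pseudocounts, filters, scaling, depth matching and removal of doublets or of cells with other-lineage or collagen-panel UMIs; the last, and the common mix of C1q levels, were added after seeing the data.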

Additional observations from a re-analysis of the deposited data

How the results depend on the processing

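The share of cycling macrophages stayed lower in Arg under all 11 alternatives, with log2 ratios from -1.23 to -1.02. The counts of genes past the fold moved by over 1.5 times under 2 settings. With a pseudocount of 20 CPM, 570 genes were higher and 289 lower in cycling cells of Arg, 600 and 255 in Control, and between libraries 129 and 57. With a filter of at least 50 CPM the counts were 390 and 341, 415 and 280, and 132 and 47. TMM scaling shifted ratios by 0.08, 0.06 and 0.02.

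Ratios past the fold changed sign for these named genes. With collagen-panel cells left out, the ratios of cycling to non-cycling cells in Arg were -0.20 for Tm4sf1, -0.13 for Rhox5, -0.14 for Zfpm2, -0.082 for Ghr, -0.33 for Cald1, -0.18 for Sparc and -0.19 for Col1a2. In Control they were -0.35 for Tm4sf1, -0.21 for Rhox5, -0.20 for Hmga2, -0.24 for Zfpm2, -0.11 for Hsph1 and -0.35 for Cald1. With other-lineage UMIs limited to 2, Arg gave -0.0056 for Tm4sf1, -0.37 for Rhox5, -0.23 for Cald1, -0.10 for Sparc, -0.14 for Col1a2, -0.28 for Gzma and -0.092 for Gzmb. Control gave -0.0049 for Tm4sf1 and -0.029 for Hsph1, and Col1a1 between libraries was 0.12. At matched depth Arg gave -0.092 for Rhox5, -0.46 for Cald1, -0.078 for Sparc, -0.59 for Col1a2 and -0.30 for Gzma, and Control gave -0.12 for Hsph1, -0.0013 for Cald1 and 0.11 for Hbb-bs. Ratios short of the fold also changed sign at matched depth, among them those of Spp1 (to -0.69 in Arg and -0.57 in Control) and Lyve1 (-0.01 in Arg). Others included Hsph1 (-0.24 in Arg), Gzma (-0.23 in Control), Fcgr1 (0.15 in Arg) and C1qa (0.13 in Arg and 0.007 in Control). The cause was not tested. No paired analysis was possible because each diet has 1 library and no replicate number.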

Other observations

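C1q macrophages with 1 to 4 cycle UMIs, 529 in Arg and 1333 in Control, were set beside the other cells on the phase panels. At least 5 UMIs of the early S panel alone, after thinning to 10000 UMIs, were found in 17.1% of them in Arg (13.6 to 21.1) and 29.7% in Control (26.9 to 32.6). The Control share lay above those of cycling cells (15.8%) and of non-cycling cells (13%, 10.9 to 15.3), while in Arg the cycling cells stood at 18.1% and the non-cycling ones at 6.14% (4.62 to 7.97). The class of the S panel alone leaves out cells high in both panels. Those made up 30.9% and 36.7% of cycling cells but 0.489% and 0.579% of cells with 1 to 4 cycle UMIs. In Arg the median S panel sum was 1 UMI in non-cycling cells, 1 in cells with 1 to 4 cycle UMIs and 4 in cycling cells. In Control these medians were 1, 2 and 5 UMIs. At least 5 UMIs of the M panel alone were found in 6.36% and 7.23% of the cells with 1 to 4 cycle UMIs. Neutrophil barcodes deep enough for this measure numbered 20 in Arg and 30 in Control. Of these, 1 (5%, 0.127 to 24.9) and 2 (6.67%, 0.818 to 22.1) reached 5 UMIs of the S panel alone. The shares in non-cycling cells thus cannot be told apart from those in neutrophil barcodes. The highest M panel sum in the neutrophil barcodes was 54 UMIs in Arg and 32 in Control. They therefore need not give the level of free RNA alone. The C1q genes summed to 8154 CPM in the cells with 1 to 4 cycle UMIs of Arg and 9800 CPM in those of Control.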
